A study of Mus musculus with 12 samples.

Results

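The oligoadenylate synthetases of the mouse, the Oas and Oasl genes, were followed through 12 transcriptomes of IEC4.1 cells, a mouse line described as intestinal epithelium. The family was picked from the readout, because Oasl1 and Oasl2 were higher in siR_Nostrill-treated than in siR_Ctrl-treated cells without IFN-γ. Of the 7 genes named (Oas1a, Oas1b, Oas1g, Oas2, Oas3, Oasl1 and Oasl2), 6 had a row among the 15002 genes of the tables. Oas1b, which RefSeq lists as a transcribed pseudogene, was not analysed here. Cells had been transfected for 24 h with a nonspecific control siRNA (siR_Ctrl) or with 120 nM of a pool of 3 siRNAs against the long noncoding RNA Nostrill (siR_Nostrill). Each kind was left without IFN-γ or then stimulated with IFN-γ at 1 ng/ml for 4 h. The sample labels carry a time of 24 h throughout, the stimulated libraries included. The 4 groups are written siR_Ctrl, siR_Nostrill, siR_Ctrl + IFN-γ and siR_Nostrill + IFN-γ. They held 3 biological replicates each of 1 cell line, and every group, controls included, carried a transfected siRNA and untransfected cells were not compared. The control siRNA was a single reference, whereas the Nostrill siRNAs were given only as a pool, so that effects of single siRNAs cannot be told apart. The sense strands of the pool, which define the siR_Nostrill groups, were the following 19-base sequences.
Nostrill-1: ccugggaagaagcauuaau
Nostrill-2: ccaccaggaacacacaaau
Nostrill-3: gccuauaagucguucuaau

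Oligoadenylate synthetases are interferon-induced enzymes that sense double-stranded RNA in the cytosol. On binding it, the products of the Oas1, Oas2 and Oas3 genes join ATP into short 2'-5'-linked oligoadenylates (2-5A), second messengers through which viral and cellular RNA is cut. The Oasl proteins carry ubiquitin-like domains. Mouse Oasl1 does not make 2-5A and is known to repress translation of the interferon regulator Irf7, whereas Oasl2 retains synthetase activity. The promoters of the family are known targets of the factors that act downstream of interferon receptors, Stat2, Irf9 and Irf1 among them.

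Between 17824306 and 19093204 reads were assigned to genes in a library, which is the depth behind every value. The deposited counts are estimates, so that a library can hold a fraction of a read, and the RNA of Nostrill, which the tables of mRNA do not list, was not used to check the labels. The labelled cell type was compared with marker genes. Of 9 epithelial markers, 4 (Epcam, Cdh1, Cldn4 and Cldn7) had no row, Krt8, Krt18, Vil1 and Cdx2 had median values of 0.18, 0.05, 0.03 and 0 FPKM (fragments scaled to transcript length and to mapped fragments), and only Krt19, at 1.56 FPKM, was above 1 FPKM. All 5 mesenchymal markers were above 1 FPKM, with medians of 1680 FPKM for Vim and 216 for Col1a1, while of 3 immune markers with a row only Cd68, at 1.42 FPKM, was above 1 FPKM, and the defining immune gene Ptprc and the endothelial genes Pecam1 and Cdh5 lay at or below 0.11 FPKM in every library. The summed mesenchymal markers spanned 1970 to 2190 FPKM in siR_Ctrl, 2380 to 2470 in siR_Ctrl + IFN-γ, 1930 to 2100 in siR_Nostrill and 2080 to 2210 in siR_Nostrill + IFN-γ cells. The summed epithelial markers spanned 1.23 to 3.05 FPKM over the 12 libraries. Their part in the results below was not tested. Libraries of one group also differed by transcript length. The Spearman correlation across genes between a library's deviation from its group mean and transcript length had an absolute size of 0.192 to 0.776. It is given without a p since genes are not replicates.

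All 6 genes lie on chromosome 5 of GRCm38.p6, in a pair of clusters. Oasl2 (gene ID 23962) spans chr5:114896926-114912245 and Oasl1 (231655) spans chr5:114923143-114937911. The Oas genes stand farther along the chromosome, with Oas2 (246728) at chr5:120730333-120749886, Oas3 (246727) at chr5:120753098-120777684, Oas1g (23960) at chr5:120876142-120887613 and Oas1a (246730) at chr5:120896256-120907544. RefSeq holds a promoter window of GRCm38.p6 for 5 of the 6 genes, with none for Oas2. The 250 bases before the start used by that table were searched on both strands for 3 motifs bound by the factors named above. These were the core of the interferon-stimulated response element (ISRE core, GAAANNGAAA), the shorter IRF element AANNGAAA, which every ISRE core contains, and the gamma-activated site (GAS, TTCNNNGAA). Matched letters are in capitals in 4 of the windows below, which are shown because the 2 Oasl genes differed from the Oas genes in these letters. The windows are those of Oas1a (chr5:120907526-120907775, minus strand), Oas3 (chr5:120777660-120777909, minus strand), Oasl1 (chr5:114922990-114923239, plus strand) and Oasl2 (chr5:114896684-114896933, plus strand), each written 5' to 3' along its gene. The table starts some genes inside the gene span given above, so that the last 97 bases of the Oasl1 window, 19 of the Oas1a, 25 of the Oas3 and 8 of the Oasl2 window lie within that span, and the Oas1g window does not. Positions are counted from the start of the table.
Oas1a: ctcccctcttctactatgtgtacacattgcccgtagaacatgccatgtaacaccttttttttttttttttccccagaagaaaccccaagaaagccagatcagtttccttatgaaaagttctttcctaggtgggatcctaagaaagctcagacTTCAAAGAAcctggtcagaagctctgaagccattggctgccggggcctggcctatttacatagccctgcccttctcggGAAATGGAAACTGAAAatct
Oas3: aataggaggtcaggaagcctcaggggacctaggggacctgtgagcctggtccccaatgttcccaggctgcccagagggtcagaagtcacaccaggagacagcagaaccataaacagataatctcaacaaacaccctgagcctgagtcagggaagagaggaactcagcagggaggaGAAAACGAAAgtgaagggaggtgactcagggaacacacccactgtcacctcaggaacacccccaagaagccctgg
Oasl1: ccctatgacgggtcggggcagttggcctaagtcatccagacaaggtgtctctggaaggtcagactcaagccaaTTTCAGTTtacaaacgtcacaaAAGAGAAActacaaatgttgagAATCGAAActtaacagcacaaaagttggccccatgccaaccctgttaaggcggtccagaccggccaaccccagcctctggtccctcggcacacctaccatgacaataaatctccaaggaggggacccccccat
Oasl2: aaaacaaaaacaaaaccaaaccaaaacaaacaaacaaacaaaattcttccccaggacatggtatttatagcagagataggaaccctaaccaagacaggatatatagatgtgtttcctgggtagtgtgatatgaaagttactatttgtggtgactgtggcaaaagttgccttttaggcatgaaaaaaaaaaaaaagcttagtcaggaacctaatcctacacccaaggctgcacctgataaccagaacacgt

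The ISRE core was found in the windows of 3 of the 5 genes, Oas1a, Oas1g and Oas3, against 2.98% of the 32851 mouse promoter windows of the same length. Oas1a and Oas1g each held 2 overlapping matches next to that start, at -20 to -11 and -14 to -5 in Oas1a (largely within its gene span) and at -18 to -9 and -12 to -3 in Oas1g. These paralogs share an unbroken run of 56 bases in this window, so they are not separate observations. The single ISRE core of Oas3 lay at -75 to -66. Oasl1 held 3 IRF elements, the last of them at -133 to -126, before its gene span, and no ISRE core or GAS. Because the starts lie at different depths in the spans, positions are not compared between genes, and an IRF element was present in 21.3% of all windows. Oasl2 held none of the 3 motifs in these 250 bases. Oas1a alone held a GAS, at -98 to -90, which 7.02% of all windows had. A match is a stretch of letters and no binding was measured here, and no match says nothing about sequence outside the window.

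**Figure D1:**
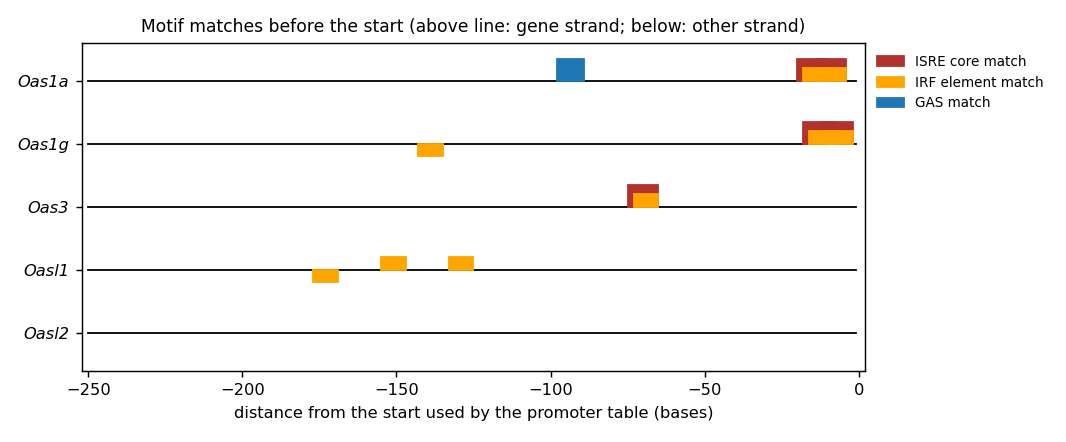
Positions of motif matches in the 250 bases before the start that the RefSeq promoter table uses for 5 genes; the horizontal axis is the distance from the start in bases, and blocks above or below a line lie on the strand of the gene or the other strand. ISRE core matches sit within 20 bases of the start in Oas1a and Oas1g and at -75 in Oas3, Oasl1 has 3 IRF elements only, and Oasl2 has no match.

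Per unit of transcript length, Oasl2 was the leading transcript of the family in all 4 groups. In siR_Ctrl cells it stood at 4.56 ± 1.17 FPKM (SD, n = 3) and Oasl1 at 1.26 ± 0.24, and the libraries of these genes did not overlap with each other or with those of any Oas gene. Oas1a followed at 0.193 ± 0.075 FPKM, Oas3 at 0.0833 ± 0.0416, Oas2 at 0.0567 ± 0.0351 and Oas1g at 0.03 ± 0.026, and each neighbour in this order overlapped with the next. With IFN-γ in siR_Ctrl cells the order of the synthetases changed only below Oas1a. Oasl2 reached 58.7 ± 5.1 FPKM and Oasl1 2.64 ± 0.20, Oas1a (1.63 ± 0.57) and Oas2 (1.23 ± 0.25) overlapped, and Oas3 (0.59 ± 0.29) overlapped with Oas1g (0.343 ± 0.160). In siR_Nostrill cells Oasl2 stood at 9.59 ± 1.03 FPKM, Oasl1 at 2.96 ± 0.91 and Oas1a at 0.36 ± 0.089, each apart from the next lower gene, while Oas3 (0.177 ± 0.080), Oas2 (0.14 ± 0.069) and Oas1g (0.07 ± 0.036) overlapped. In siR_Nostrill + IFN-γ cells the means were 82.8 ± 3.7 FPKM for Oasl2, 3.22 ± 0.37 for Oasl1, 1.71 ± 0.35 for Oas1a, 1.70 ± 0.11 for Oas2, 0.767 ± 0.116 for Oas3 and 0.403 ± 0.215 for Oas1g, and only Oas1a and Oas2 overlapped among neighbours. Counted in reads, Oasl2 made up 71.1% to 81.4% of all family reads in the libraries without IFN-γ and 89.2% to 92.0% in those with it, and Oasl1 made up 13.6% to 20.9% and 2.43% to 3.51%. These shares are not corrected for length.

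**Figure D2:**
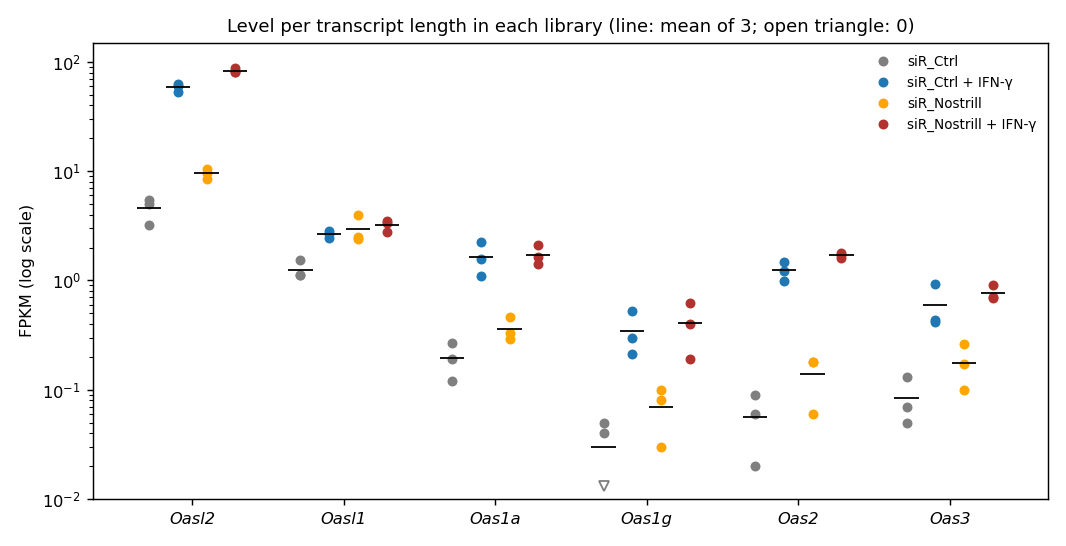
FPKM of each gene in each of the 12 libraries on a log scale, with the mean of each group of 3 as a line; 1 library with Oas1g at 0 is drawn as an open triangle at the foot of the plot. Oasl2 lies above every other family member in every library, and the 4 Oas genes lie below 1 FPKM in every library without IFN-γ.

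The question of the design for this family was whether IFN-γ changes it in control cells and in cells with the Nostrill siRNAs, and whether the siRNAs change it. Reads were compared by the quasi-likelihood test of edgeR, with p-values adjusted by Benjamini-Hochberg over 11900 genes (the edgeR test from here on), and log2 fold changes are given with their standard error (SE). A gene is called where its adjusted p is below 0.05. As these were bulk RNA samples, fewer cells that express a gene and less RNA of it per cell cannot be told apart.

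In siR_Ctrl-treated cells 6 of the 6 genes were called higher with IFN-γ, from 2.21-fold for Oasl1 to 22.8-fold for Oas2. The values of Oasl1 and Oasl2 are read as descriptions only, although both genes are in the count. Among all genes tested, 4.71% were called higher in this comparison. The siR_Ctrl libraries also entered the contrast from which the family was picked. The count over the family is therefore not independent evidence and no support for a response of the family. Oasl1 and Oasl2 were picked for siR_Ctrl values below those of siR_Nostrill, and these low values are also the baseline here. The filter on low counts asks for 3 libraries at or above the CPM of 10 reads in a library of median size. Without IFN-γ, Oas1g met this level in 0 libraries and Oas1a, Oas2 and Oas3 in 2 each, so these 4 genes passed only with their IFN-γ libraries. Their adjusted p for IFN-γ with either siRNA is therefore read as a description. Without a filter the edgeR test called the same 6 genes. The adjusted p was then 5.3e-06 for Oas2, 0.00111 for Oas3, 0.000672 for Oas1a and 0.0282 for Oas1g. Also without a filter, limma on log2(FPKM + 1) called 5 of the 6, with Oas1g at an adjusted p of 0.0906. The median log2 fold change was 3.28 over the 6 genes and -0.01 over all genes tested.

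Oasl2, the member with most reads, had 227, 147 and 245 reads in the siR_Ctrl libraries and 2788, 2543 and 2982 in the siR_Ctrl + IFN-γ libraries. Every treated library was far above every untreated one. The log2 fold change was 3.76 (SE 0.15), or 13.6-fold, beside 1.10 in the contrast that picked the gene. That contrast used the same siR_Ctrl libraries, so the call of Oasl2 is not read as a test of this change. Oas2 is a synthetase with a tandem of catalytic-type domains. It had 1, 4 and 6 reads without and 68, 87 and 102 reads with IFN-γ, and its groups did not overlap. Its log2 fold change was 4.51 (SE 0.38), with an adjusted p of 9.98e-06 in the edgeR test. The ratio of the summed reads, scaled to library size, was 23.6, with an exact 95% counting interval from 12.9 to 47.8. Such intervals cover counting error only and leave out the spread between libraries, so they do not bound a change between groups. Reads copied by PCR are also not independent molecules.

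Oas3 is the largest synthetase and binds long double-stranded RNA. It had 6, 10.36 and 4.02 reads without and 35.59, 36 and 73.60 reads with IFN-γ. The third treated library was the highest and the other two lay together, and the groups did not overlap. The log2 fold change of Oas3 was 2.85 (SE 0.43; adjusted p = 0.00137, edgeR test). Oas1a, one of several mouse Oas1 paralogs, had 5.37, 2.77 and 8 reads without and 48.09, 67.17 and 28.05 reads with IFN-γ. Its highest library was the second treated one, in which Oas3 was low, and its lowest treated library was the third, in which Oas3 was highest. Transcripts of Oas1a and Oas3 had effective lengths of 1594 and 4457 nt, and in these same libraries the deviation of all genes correlated with length at -0.744 in the second and 0.728 in the third. Whether length accounts for this opposite order was not tested. The log2 fold change of Oas1a was 3.16 (SE 0.45; adjusted p = 0.000896, edgeR test).

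Oas1g, a close paralog of Oas1a, was the least abundant member, with 1.63, 1.23 and 0 reads without and 9.91, 17.83 and 6.95 reads with IFN-γ. Its log2 fold change of 3.41 (SE 0.80; adjusted p = 0.0289, edgeR test) rested on about 3 reads in the siR_Ctrl group. The ratio of summed reads, scaled to library size, was 11.8 with an exact 95% counting interval from 3.71 to 59.8. The call was lost on leaving out siR_Ctrl replicate 2 or 3 or siR_Ctrl + IFN-γ replicate 1 or 2. The adjusted p was then 0.0910, 0.104, 0.0567 and 0.103 (edgeR test), with log2 fold changes of 3.43, 2.88, 3.51 and 2.92. Over all 12 fits that each left out 1 library the log2 fold change ranged from 2.88 to 4.23. Reads of Oas1a and Oas1g had been divided between these paralogs upstream. Each value was fractional in 11 libraries, but their sum was a whole number in all 12, and Oas1a took 69.2% to 100% of it. The sums were 7, 4 and 8 reads in siR_Ctrl and 58, 85 and 35 in siR_Ctrl + IFN-γ libraries, which depends on no division. Scaled to library size, the ratio of these sums was 9.45, with an exact 95% counting interval from 5.87 to 16.1. Oas3 reads were fractional in 9 libraries and no partner gene was found for them, while Oas2, Oasl1 and Oasl2 held whole reads throughout.

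Oasl1 had the smallest change in the family. It had 38, 39 and 52 reads in siR_Ctrl and 86, 100 and 97 reads in siR_Ctrl + IFN-γ libraries. Its log2 fold change was 1.15 (SE 0.22), below that of every other member. This is no larger than the 1.25 of the contrast that picked the gene, which used the same siR_Ctrl libraries. The call of Oasl1 in the count over the family is therefore not read as a test of this change. That the response of Oasl1 differed from those of the others was not tested.

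**Figure D3:**
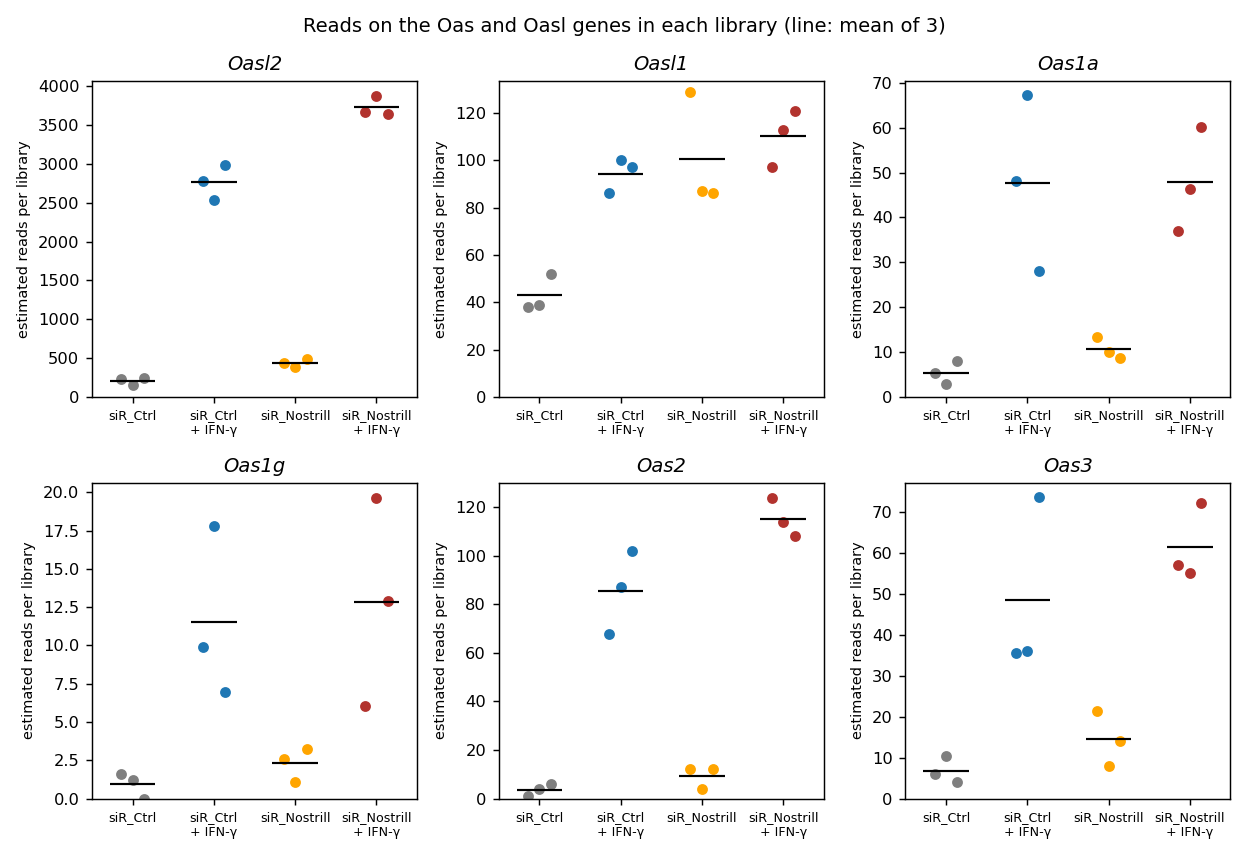
Estimated reads of each gene (vertical axis, a scale from 0 for each gene) in the 3 libraries of each of the 4 groups, with the group mean as a line. The IFN-γ libraries lie above those without IFN-γ for 5 genes with either siRNA, while Oasl1 is low only in the siR_Ctrl libraries and at 86 to 129 reads in the other 9.

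In siR_Nostrill-treated cells IFN-γ raised 4 of the 6 genes, Oasl2, Oas1a, Oas2 and Oas3. Among all genes tested 5.24% were called higher there, and the siR_Nostrill libraries without IFN-γ are those of the contrast that picked the family. Oas1a, Oas2 and Oas3 passed the filter on low counts only with their IFN-γ libraries, so this count is no support for a response of the family. Their adjusted p below is read as a description. Without a filter, the edgeR test and limma on log2(FPKM + 1) each called the same 4 genes. The adjusted p of the edgeR test was then 8.82e-06 for Oas2, 0.00416 for Oas3 and 0.0056 for Oas1a. Oasl2 had 439, 379 and 486 reads without and 3668, 3883 and 3648 reads with IFN-γ. This was a wide separation, with a log2 fold change of 3.09 (SE 0.15), or 8.51-fold. The value is a description, since these untreated libraries also picked Oasl2. Oas2 went from 12, 4 and 12 reads to 124, 114 and 108, a log2 fold change of 3.60 (SE 0.32; adjusted p = 1.57e-05, edgeR test). The treated libraries of Oas2 were close to each other, and each was far above the untreated ones. Oas3 had 21.32, 8.03 and 13.97 reads without and 57, 54.99 and 72.11 reads with IFN-γ (log2 fold change 2.07, SE 0.37; adjusted p = 0.00438, edgeR test). Oas1a had 13.42, 9.91 and 8.74 reads without and 36.97, 46.35 and 60.09 reads with IFN-γ (log2 fold change 2.13, SE 0.40; adjusted p = 0.00624, edgeR test). Neither gene overlapped between the groups.

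The 2 genes not called in siR_Nostrill-treated cells differed in kind. Oas1g, at 2.58, 1.09 and 3.26 reads without and 6.03, 19.65 and 12.91 reads with IFN-γ, did not overlap between the groups and had a log2 fold change of 2.41 (SE 0.67; adjusted p = 0.0554, edgeR test), close to the threshold. The adjusted p was 0.0257 with DESeq2, which called 6.64% of its genes higher, and 0.0143 with the length trend removed, where 11.1% were higher, and it was 0.0630 without a filter. It ranged from 0.0299 to 0.213 when each library was left out in turn (edgeR test), below the threshold in 3 of 12 fits. Summed with Oas1a, the reads went from 16, 11 and 12 to 43, 66 and 73. Scaled to library size, the ratio was 4.62 with an exact 95% counting interval from 3.25 to 6.71. Oasl1 had 129, 87 and 86 reads without and 97, 113 and 121 reads with IFN-γ, and these groups overlapped. Its log2 fold change was 0.11 (SE 0.20), a description too, since the gene was picked for high values in these siR_Nostrill libraries. The first siR_Nostrill library, at 129 reads, was the highest of all 12 for Oasl1. The effects of IFN-γ with the 2 siRNAs differ by an interaction that contains the contrast which picked the genes, so that difference was not tested for any member.

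With IFN-γ present, siR_Nostrill-treated and siR_Ctrl-treated cells were compared in 6 libraries outside the groups of the contrast that picked the family. The comparison is not wholly separate from the choice, because all 12 libraries shared the fit and its estimate of the spread. None of the 6 genes was called in the edgeR test, and 1 of them, Oasl2, had an unadjusted p below 0.05. So did 1730 of the 11900 genes tested, higher or lower. At the adjusted threshold, the background was 0.185% of genes called higher. Oasl2 had 2788, 2543 and 2982 reads in siR_Ctrl + IFN-γ and 3668, 3883 and 3648 reads in siR_Nostrill + IFN-γ libraries, so every siR_Nostrill library was above every siR_Ctrl library. The log2 fold change was 0.43 (SE 0.13), or 1.35-fold. Its adjusted p was 0.159 in the edgeR test, from an unadjusted value of 0.00795. DESeq2 gave an adjusted p for 3 members, Oasl1, Oasl2 and Oas2, and called Oasl2 (adjusted p = 0.0285), with 2.84% of the genes it tested called higher. The edgeR test with the length trend removed also called Oasl2 alone in the family (adjusted p = 0.0201), with 6.08% of all genes called higher. The adjusted p of Oasl2 ranged from 0.0772 to 0.422 when each library was left out in turn and from 0.0201 to 0.207 over the other settings, while the fold change stayed positive in each of them. The call for Oasl2 therefore depends on the method.

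Oas2 was likewise apart, with 68, 87 and 102 reads in siR_Ctrl + IFN-γ and 124, 114 and 108 reads in siR_Nostrill + IFN-γ libraries, and a log2 fold change of 0.43 (SE 0.24; adjusted p = 0.448, edgeR test). The siR_Nostrill libraries of these 2 of 6 genes lay wholly above the siR_Ctrl libraries in counts scaled to library size (CPM), as did those of 11.1% of all genes tested. The other genes overlapped. The log2 fold change was 0.34 (SE 0.31) for Oas3, 0.22 (SE 0.20) for Oasl1, 0.15 (SE 0.49) for Oas1g and -0.01 (SE 0.32) for Oas1a. Their approximate 95% intervals were taken from the SE by the normal distribution, so they are narrower than the edgeR test itself would give. They reached from -0.27 to 0.96 for Oas3 and from -0.17 to 0.61 for Oasl1. For Oas1g they reached from -0.82 to 1.11 and for Oas1a from -0.65 to 0.62. These widths did not show that the genes were equal in both groups. The sign for Oas1a changed with the setting, and with Oas1g summed into it the log2 fold change was 0.02. The median over the 6 genes was 0.28, beside a median of -0.003 over all genes tested.

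Without IFN-γ, the values that picked the family are given as a description only. Oasl1 went from 38, 39 and 52 reads in siR_Ctrl to 129, 87 and 86 reads in siR_Nostrill libraries, a log2 fold change of 1.25 (SE 0.21), or 2.39-fold. Oasl2 went from 227, 147 and 245 to 439, 379 and 486 reads, a log2 fold change of 1.10 (SE 0.14), or 2.14-fold. These were the members inside the threshold of the choice, which 0.0756% of all genes tested passed in the same direction. That share changed with the libraries and the tool. In the edgeR test no gene passed without siR_Ctrl replicate 1, without siR_Nostrill replicate 1, 2 or 3, without siR_Nostrill + IFN-γ replicate 2 or with only the 6 libraries compared (792 to 2297 genes then had an unadjusted p below 0.05), so in those fits neither Oasl1 nor Oasl2 lay inside the threshold. DESeq2 called 130 genes higher. The members outside it rested on far fewer reads. The log2 fold change was 1.34 (SE 0.53) for Oas2, 1.11 (SE 0.51) for Oas3, 1.01 (SE 0.56) for Oas1a and 1.15 (SE 1.10) for Oas1g. The summed reads of Oas2 were 11 in siR_Ctrl and 28 in siR_Nostrill libraries, and those of Oas1g 3 and 7. For Oas1a and Oas1g together the sums were 19 and 39. Scaled to library size, their ratio was 2.09. In CPM, the siR_Nostrill libraries lay wholly above the siR_Ctrl libraries for Oasl1, Oasl2 and Oas1a, as they did for 8.7% of all genes tested, and the groups overlapped for the other 3 genes. The log2 fold changes of all genes in this contrast correlated with transcript length at -0.649 (Spearman, across genes). The same correlation was -0.418 for IFN-γ with siR_Ctrl, 0.475 for IFN-γ with siR_Nostrill and 0.258 between the siRNAs with IFN-γ. With the trend removed, the values without IFN-γ were 1.17 for Oasl1, 1.09 for Oasl2 and 1.44 for Oas2. They were 1.28 for Oas3, 0.88 for Oas1a and 1.06 for Oas1g. With the trend kept, fits that each left out 1 library gave values between 1.02 and 1.42 for Oasl1 and between 0.93 and 1.25 for Oasl2. The ranges were wider for the other members, from 0.88 to 1.87 for Oas2, from 0.72 to 1.55 for Oas3, from 0.76 to 1.42 for Oas1a and from 0.62 to 1.98 for Oas1g.

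**Figure D4:**
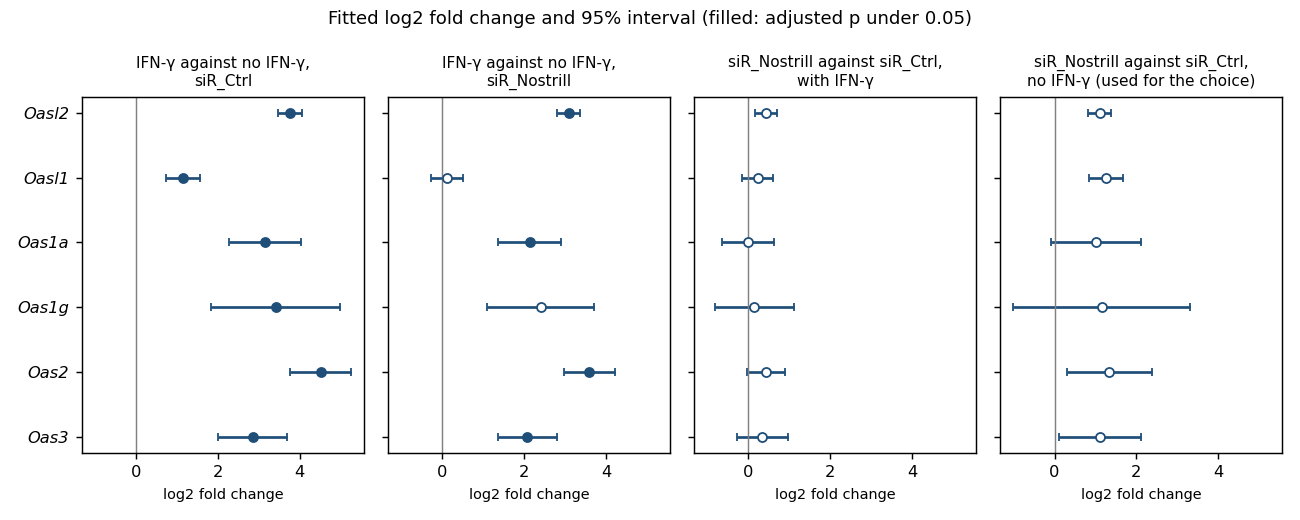
Fitted log2 fold change of each gene (horizontal axis) in the 4 comparisons, with bars for an approximate 95% interval from the SE (normal distribution). Filled points passed an adjusted p of 0.05 in the edgeR test. The panel on the right is the contrast that picked the family and has no test. Values of Oasl1 and Oasl2 for IFN-γ with either siRNA are descriptions, as their baseline libraries picked them. The adjusted p of the 4 Oas genes for IFN-γ is a description too, as they passed the filter only with their IFN-γ libraries. The values of the IFN-γ comparison are above 2 for 5 genes with either siRNA, those of Oasl1 are 1.15 and 0.11, and those between the siRNAs with IFN-γ run from -0.01 to 0.43.

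Across the 12 libraries the members followed each other unequally, as the correlation of log2 CPM (prior count 2) showed. Pearson's r of Oasl2 was 0.975 with Oas2, 0.957 with Oas1a, 0.934 with Oas3 and 0.894 with Oas1g, and 0.716 with Oasl1. The r of Oasl1 with the 4 Oas genes was 0.651 to 0.755. These values describe 12 libraries that fall into 4 groups and share their normalization, and no p is given. The 5 genes outside the family whose pattern was most like that of Oasl2 were Usp18 (r = 0.995), Irf9 (0.994), Cx3cl1 (0.992), Lgals3bp (0.992) and LOC102641031 (0.992). Usp18 encodes the protease that removes ISG15, and Irf9 a subunit of the interferon-activated factor ISGF3. Usp18 stood at 0.577 ± 0.207 FPKM in siR_Ctrl, 7.76 ± 0.19 in siR_Ctrl + IFN-γ, 1.18 ± 0.17 in siR_Nostrill and 10.1 ± 1.2 in siR_Nostrill + IFN-γ libraries. For Oasl1 the list was a different one, made of Fdft1 (0.961), Msmo1 (0.96), Pnrc1 (0.929), Cyp4f13 (0.927) and Cacfd1 (0.922). Fdft1 and Msmo1 encode enzymes of cholesterol synthesis. Fdft1 stood at 36.7 ± 5.7 FPKM in siR_Ctrl, 53.9 ± 4.7 in siR_Ctrl + IFN-γ, 54.8 ± 4.8 in siR_Nostrill and 58.0 ± 6.5 in siR_Nostrill + IFN-γ libraries. Since these genes were taken for their likeness to Oasl1, and Oasl1 for its values in siR_Ctrl and siR_Nostrill cells, a shared pattern follows from the choice.

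The genes that act beside the synthetases were read from lists. Of 3 genes read for the 2-5A pathway, Abce1, Pde12 and Akap7, none was called by IFN-γ with either siRNA or between the siRNAs with IFN-γ in the edgeR test. Pde12 and Akap7 are tied to the breakdown of 2-5A. For IFN-γ with siR_Ctrl, the log2 fold change was -0.32 (SE 0.12; adjusted p = 0.199, edgeR test) for Abce1, -0.29 (SE 0.12; adjusted p = 0.250) for Pde12 and 0.38 (SE 0.18; adjusted p = 0.365) for Akap7. With siR_Nostrill the values were 0.17 (SE 0.12), 0.28 (SE 0.12) and 0.23 (SE 0.17), with adjusted p from 0.198 to 0.418. Between the siRNAs with IFN-γ they were 0.16 (SE 0.12), 0.28 (SE 0.12) and 0.29 (SE 0.17), with adjusted p from 0.298 to 0.570. The levels of Pde12 and Akap7 in siR_Ctrl cells, 6.83 ± 0.70 and 2.36 ± 0.39 FPKM, were below that of Abce1, which stood at 105 ± 18 FPKM.

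Of 10 sensors and adaptors of nucleic acid sensing, 9 were tested, and IFN-γ raised 8 of them with siR_Ctrl and 8 with siR_Nostrill, none being lower. The shares of all genes called higher were 4.71% and 5.24%. The largest changes with siR_Ctrl were those of Zbp1, a sensor of Z-form nucleic acid (log2 fold change 5.22, SE 0.21), Tlr3, the endosomal receptor for double-stranded RNA (2.45, SE 0.21), and Ifih1, which encodes MDA5 (1.74, SE 0.17). The median of the list was 1.56 with siR_Ctrl and 1.44 with siR_Nostrill. Between the siRNAs with IFN-γ none of the 9 was called, and their median was 0.27. Mavs, the shared adaptor of the RNA helicases, was the one not called with IFN-γ, at log2 fold changes of -0.10 and 0.20.

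Of 12 genes of interferon signalling, IFN-γ raised 5 with siR_Ctrl and 6 with siR_Nostrill, beside 4.71% and 5.24% of all genes. Irf1 had a log2 fold change of 3.57 (SE 0.10) with siR_Ctrl and 3.23 (SE 0.10) with siR_Nostrill, Stat2 3.18 (SE 0.11) and 2.91 (SE 0.10), and Irf7, whose translation Oasl1 is known to repress, 3.57 (SE 0.20) and 2.61 (SE 0.18). Between the siRNAs 1 of the 12 was called with IFN-γ, the receptor chain Ifngr2, beside 0.185% of all genes called higher. Its log2 fold change was 0.54 (SE 0.09; adjusted p = 0.0375, edgeR test). No gene at all was called in this comparison without siR_Nostrill + IFN-γ replicate 1 or 3 or with only the 6 libraries compared. In the contrast that picked the family, given here also without a test, Irf7 stood at 1.66 ± 0.33 FPKM in siR_Ctrl and 3.75 ± 0.55 in siR_Nostrill cells, a log2 fold change of 1.19 (SE 0.21), and Irf9 had a log2 fold change of 0.58 (SE 0.09).

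Of 12 other effectors that type I interferon induces, 10 were tested, and IFN-γ raised 10 of them with siR_Ctrl and 9 with siR_Nostrill. Over all genes tested, 4.71% and 5.24% were called higher. The largest log2 fold changes with siR_Ctrl were 4.89 (SE 0.78) for Cmpk2, a nucleotide kinase on few reads, 3.81 (SE 0.20) for Usp18 and 3.73 (SE 0.20) for Xaf1. The list had a median log2 fold change of 3.05 with siR_Ctrl and 2.73 with siR_Nostrill. Between the siRNAs with IFN-γ none of the 10 was called, and their median was 0.25. Ifit1, whose product binds foreign RNA, had a log2 fold change of 0.78 (SE 0.15; adjusted p = 0.0569, edgeR test) there. In the contrast that picked the family its value was 1.03 (SE 0.17), and the median of the list was 0.91, beside 0.01 over all genes, as a description. Of 5 further Oas1 paralogs only Oas1c was tested. It had 6, 9 and 9 reads in siR_Ctrl, 26, 29 and 20 in siR_Ctrl + IFN-γ, 18, 19 and 19 in siR_Nostrill and 15, 32 and 29 in siR_Nostrill + IFN-γ libraries. As with Oasl1, its IFN-γ groups were apart with siR_Ctrl (log2 fold change 1.64, SE 0.34; adjusted p = 0.0141, edgeR test) and overlapped with siR_Nostrill (0.43, SE 0.30; adjusted p = 0.399, edgeR test).

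**Figure D5:**
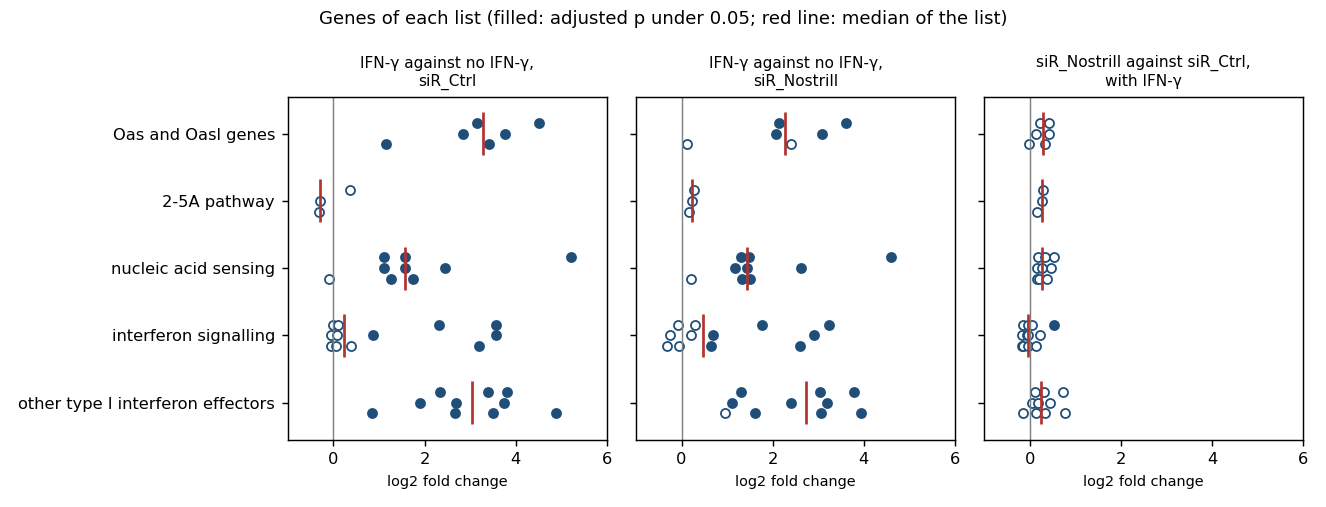
Log2 fold change of every tested gene of the family and of 4 lists (rows) in 3 comparisons (panels); filled points passed an adjusted p of 0.05 in the edgeR test and the red line is the median of the row. With IFN-γ the medians of the family are 3.28 with siR_Ctrl and 2.27 with siR_Nostrill, and between the siRNAs with IFN-γ a single point, Ifngr2, is filled.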

How the data were processed

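RNA of 12 libraries (4 groups of 3, taken from the sample labels) was analysed. Per the labels and methods, reads had been cleaned with SOAPnuke v1.5.2 and aligned to GRCm38.p6 with HISAT2 v2.0.4 and Bowtie2 v2.2.5. For the counting program, none is named (not given in the sources used here). Estimated counts, FPKM and TPM per gene were deposited by the authors, and effective transcript lengths were derived from them. Counts were rounded and fitted with edgeR 4.0.16 in R 4.3.3 (TMM, default filter on low counts, quasi-likelihood test, all 12 libraries together), with a threshold of 0.05 after Benjamini-Hochberg adjustment over all genes tested. Alternatives were DESeq2 1.42.0, its size factors, other filters (none, or mean CPM of 5 or more), fits of the 6 libraries compared alone, a block for the replicate number, removal of a length trend (lowess, span 0.3), limma 3.58.1 on log2 FPKM with pseudocounts of 1 and 0.1 (mean FPKM of 0.5 or more, or all genes), and omission of each library. Summing Oas1a and Oas1g was added after seeing the data. Pipelines were tested on simulated counts with the same spread for all genes, no length trend and no genes of few reads such as Oas1g. That simulation does not cover these features of the data. Members and lists were chosen with earlier results of these data known. Named were every member present, for each list at most 3 called genes with the largest change in a comparison and any gene a result turns on, and the 5 genes most like Oasl1 and Oasl2. Some genes described for contrast (Mavs, Irf7, Irf9, Ifit1, Oas1c and other genes that were not called) were named after their values were seen. Promoter sequences are from RefSeq (GRCm38.p6). Of the lists, 2 genes are not reported here.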

Additional observations from a re-analysis of the deposited data

How the results depend on the processing

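Leaving out one library at a time gave 5 to 6 members called for IFN-γ with siR_Ctrl, 4 to 5 with siR_Nostrill and 0 between the siRNAs with IFN-γ. Genes called in all ranged from 489 to 589, 491 to 1138 and 0 to 72, against 649, 807 and 51 in the main analysis, with 491 without siR_Nostrill replicate 2, 500 without siR_Nostrill + IFN-γ replicate 2, and 0 without siR_Nostrill + IFN-γ replicate 1 or 3. With a mean of at least 5 CPM only Oasl2 was left, so 1 member was called for IFN-γ with either siRNA, by construction. For IFN-γ with siR_Ctrl, 1314 genes were called with the length trend removed and 341 with only the groups compared, and with siR_Nostrill 1330 with DESeq2, 2227 with the length trend removed and 1997 with only the groups compared. Between the siRNAs with IFN-γ, 1 member was called with DESeq2 and 1 with the length trend removed. Genes called there were 601 with DESeq2, 30 without a filter, 105 with at least 5 CPM, 1514 with the length trend removed, 135, 114 and 118 with limma (pseudocount 1, 0.1, and 1 without a filter) and 0 with only the groups compared. The cause of these differences was not tested.

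Deviations of libraries with the same replicate number correlated from -0.495 to 0.725. Differently numbered libraries were not compared, and deviations also followed transcript length, so these values do not settle whether the numbers pair the samples. With the number as a block, 32 genes were called between the siRNAs with IFN-γ. For IFN-γ with siR_Nostrill 943 genes were called, 690 of them higher. These held 5 members, as Oas1g then passed (adjusted p = 0.0490, edgeR). The block gave Oas1a a log2 fold change of 0.0089 between the siRNAs with IFN-γ, with the sign reversed. The sign of Oas1a there also reversed with the length trend removed (0.0557), with limma (0.0563 and 0.0985 with pseudocounts of 1 and 0.1, and 0.0563 without a filter) and with Oas1g summed into it (0.0177), and ranged from -0.31 to 0.36 with one library left out. That of Oas1g ranged from -0.30 to 0.64, and that of Oasl1 for IFN-γ with siR_Nostrill from -0.0306, without siR_Nostrill replicate 3, to 0.352. For the contrast that picked the family, limma on log2(FPKM + 1) without a filter, a scale that understates changes of low genes, gave 0.79 for Oasl1 and 0.05 to 0.19 for the 4 Oas genes. Filters on FPKM removed Oas1g and Oas3, and other alternatives gave no value where a gene failed their filter. The 4 Oas genes had at most 21.3 reads in a library without IFN-γ, while Oasl2, with 2543 to 3883 reads with IFN-γ, also changed its call with the method.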
